A study of Mus musculus with 6 samples.

Results

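The tubulins, the enzymes and cofactors that act on them, and the septins were taken from the deposited expression table by gene symbol. The set holds the alpha-, beta-, gamma-, delta- and epsilon-tubulins, the gamma-tubulin complex proteins (Tubgcp), the tubulin tyrosine ligase-like enzymes (Ttll), the cytosolic carboxypeptidases (Agbl), the folding cofactors Tbca to Tbce, the stathmins, the katanins and the septins. The rule selected 71 of 55331 rows, covering 70 gene symbols, because Sept2 has 2 rows at overlapping positions. Cuffdiff tested 65 of the 71 and left 6 untested, all of them under 0.2 FPKM in both groups (fragments scaled to transcript length and library size). Polyadenylated RNA came from whole testes of 35-day-old mice of mixed strain. The 3 control libraries were Ptbp1fl/fl without Cre, and the 3 Ptbp1_cKO libraries were Ptbp1fl/fl; Amh-Cre+/-, so both groups carried the floxed alleles. Amh-Cre drives recombination in Sertoli cells, the somatic cells that support the germ cells, and PTBP1 is an RNA-binding protein that regulates splicing. No group carried Amh-Cre alone, so the deletion and the transgene cannot be told apart. Whether the libraries of a group stem from separate animals is not stated in the labels.

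For each group the authors' deposited table holds a single FPKM value and none per library, so no SD is printed and the spread between libraries cannot be shown. Low FPKM values fall on steps from which the weight of a fragment was read: at 1 FPKM and an effective length of 1 kb, a gene had about 226 fragments in control and 204 in Ptbp1_cKO. The effective length is that of the transcript less 262 bp in control and 266 bp in Ptbp1_cKO, as the steps give it. Intervals from such numbers cover counting error only. Ptbp1 itself stood at 50.0 FPKM in control and 46.7 FPKM in Ptbp1_cKO (q = 0.999 in the authors' deposited table), and a value for whole testis does not check a deletion confined to Sertoli cells. Of 43 markers chosen for testicular and neighbouring cell types, 29 had a higher and 14 a lower FPKM in Ptbp1_cKO. All 10 Sertoli cell markers were higher in FPKM, with a summed level of 1019 against 1395 FPKM, and the 4 spermatocyte and 4 round spermatid markers were all lower, with sums of 637.7 against 566.8 FPKM and 474.5 against 411.2 FPKM. The 4 elongating spermatid markers, 3 of them higher, summed to 44841 and 47395 FPKM. The markers were chosen with earlier results of these data known, so their share of calls does not measure an excess over all genes. Of the 42 tested markers 5 passed a deposited q under 0.05, all of them higher in Ptbp1_cKO, where 1.16% of all tested genes passed in either direction. They were Clu of Sertoli cells (853.6 and 1199 FPKM), Insl3 of Leydig cells (749.6 and 1049 FPKM), Kit (3 and 4.57 FPKM) and Uchl1 (40.3 and 54.7 FPKM) of spermatogonia, and Crisp1 of the epididymis (0.0482 and 5.90 FPKM). The other epididymal markers were low, Defb42 at 0.0279 and 0.239 FPKM and Lcn5 listed at 0 in control and at 0.0126 FPKM in Ptbp1_cKO. In bulk tissue, fewer cells of a type and less RNA per cell cannot be told apart.

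Microtubules are polymers of paired alpha- and beta-tubulin, and gamma-tubulin rings start their growth. In the testis they form the meiotic spindles, the manchette that shapes the spermatid head and the axoneme of the sperm tail, and in Sertoli cells they form long tracks on which spermatids are moved. The tails of tubulin are modified after folding: Ttll enzymes add glutamate or glycine chains, carboxypeptidases trim glutamate again, and katanins cut the polymer. Septins are a separate family of GTP-binding proteins that assemble into filaments and rings, among them the annulus between the midpiece and principal piece of the sperm tail.

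None of the 65 tested members passed the threshold of Cuffdiff's test, a q under 0.05 over all tested genes, while 1.16% of the 22048 tested genes did. The lowest q of a member was 0.139, for Sept11, in the authors' deposited table. At a deposited unadjusted p under 0.05, 9 members, or 13.8%, passed, against 8.98% of all tested genes; 5 of them were higher in Ptbp1_cKO (4.38% of all tested genes) and 4 lower (4.59%). The 5 were Sept11, Tubb5, Tuba4a, Tuba1c and Ttll8, and the 4 were Sept10, Ttll7, Katnal2 and Tubal3. No member passed a deposited q under 0.1 (1.91% of all tested genes) or a q under 0.05 readjusted over genes with at least 1 FPKM (1.61%). A normal distribution applied to the deposited test statistic gave 0 members with an unadjusted p under 0.05 (1.34% of all tested genes) and 0 with a q under 0.05 (0.0863%), and the lowest such p was 0.0872. Among tested genes with at least 1 FPKM in a group, 30 of 62 members were higher in Ptbp1_cKO, or 48.4%, beside 48.9% of all 15793 such genes. Their median log2 fold change was -0.01 in each case. The median absolute log2 fold change was 0.10 for the members and 0.13 for all genes, and 7 members (11.3%) differed by at least 0.25 on the log2 scale, beside 21.6% of all genes. The median difference of log2(FPKM + 1), a scale that understates the change of low genes, was -0.002 over the 67 members with at least 0.1 FPKM and 0.004 over all 23462 such genes.

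**Figure D1:**
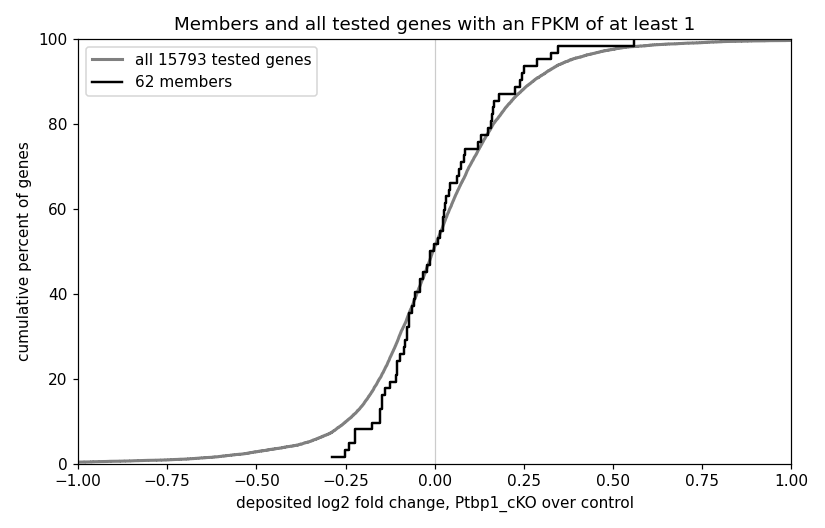
Cumulative percent of genes (vertical axis) against the log2 fold change, Ptbp1_cKO over control, as deposited (horizontal axis), for the 62 members and all 15793 tested genes with at least 1 FPKM in a group. Both curves cross 0 near their middle, and the members' curve runs from -0.29 to 0.56.

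The promoters of the isotypes that led each tubulin family, and of 2 isotypes with an unadjusted p under 0.05, are shown first. The windows hold the 250 bases before the start of transcription in RefSeq (GRCm38.p6), 5′ to 3′ on the strand of the gene, with CCAAT or its complement ATTGG in capitals. The CCAAT box is a common promoter element bound by the factor NF-Y. Tuba3a (chr6:125286082-125286331, minus strand) and Tubb4b (chr2:25224703-25224952, minus strand) are the most abundant alpha- and beta-tubulins here. Tuba1c (chr15:99029641-99029890, plus strand) and Tubb5 (chr17:35838307-35838551, minus strand, trimmed to 245 bases at its annotated first exon) were chosen for their unadjusted p and because little of their windows overlaps their own exons.
Tuba3a: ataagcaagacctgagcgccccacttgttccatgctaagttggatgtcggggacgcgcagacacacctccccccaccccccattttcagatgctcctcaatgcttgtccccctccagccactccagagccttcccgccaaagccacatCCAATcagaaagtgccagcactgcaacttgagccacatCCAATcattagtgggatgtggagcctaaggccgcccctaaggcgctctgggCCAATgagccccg
Tubb4b: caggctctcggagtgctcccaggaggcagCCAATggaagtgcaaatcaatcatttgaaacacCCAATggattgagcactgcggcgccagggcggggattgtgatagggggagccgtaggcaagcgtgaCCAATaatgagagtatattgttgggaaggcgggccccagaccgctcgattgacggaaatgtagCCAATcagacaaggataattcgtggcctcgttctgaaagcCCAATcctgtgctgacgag
Tuba1c: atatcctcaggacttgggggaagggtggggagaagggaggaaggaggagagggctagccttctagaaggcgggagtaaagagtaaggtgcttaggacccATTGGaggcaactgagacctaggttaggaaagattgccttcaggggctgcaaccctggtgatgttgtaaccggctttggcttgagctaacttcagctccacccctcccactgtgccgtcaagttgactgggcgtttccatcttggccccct
Tubb5: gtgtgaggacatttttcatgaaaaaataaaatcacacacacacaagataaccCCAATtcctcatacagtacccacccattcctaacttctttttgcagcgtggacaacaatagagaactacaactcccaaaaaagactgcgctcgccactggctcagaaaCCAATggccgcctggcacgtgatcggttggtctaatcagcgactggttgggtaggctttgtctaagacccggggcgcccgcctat
Tubb4b held 5 such boxes, Tuba3a 3, Tubb5 2 and Tuba1c 1. At least 1 box was found for 21 of the 53 members with a window in RefSeq's table, or 39.6%, against 37.5% of all genes in it. At least 3 boxes were found for Tuba3a and Tubb4b, 3.77% of these members, against 3.23% of all genes. The cyclic AMP response element, searched as TGACGTCA on both strands, was found for Tbcc and Tubb2a, also 3.77% of these members, against 1.77% of all genes. The X-box, also searched, was found for Agbl3 alone, 1.89% of these members, against 0.444% of all genes. These matches describe the letters of the windows.

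Alpha-tubulin transcripts were dominated by the testis isotypes. Tuba3a (chromosome 6, 125278274 to 125286042, mm10) stood at 985.5 FPKM in control and 934.7 FPKM in Ptbp1_cKO, and Tuba3b on the same chromosome (145615757 to 145621479) at 783.4 and 744.8 FPKM. The pair held 76.5% of all alpha-tubulin FPKM in control and 72.9% in Ptbp1_cKO. Their transcripts share 96.5% identity over most of their length, so reads may be split between them and the separate values are uncertain. Their promoter windows were 63.6% identical in a global alignment, against 46.6% to 51.2% for either of them with Tuba1b or Tuba4a. These alignments used the first listed window of 250 bases per gene, not trimmed at annotated exons. Tuba8 followed at 340.0 and 377.3 FPKM.

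The other alpha-tubulins with at least 1 FPKM all had a higher value in Ptbp1_cKO. Tuba4a (chromosome 1, 75214228 to 75219865), whose gene does not encode the final tyrosine that most alpha-tubulins carry, was at 79.2 and 100.6 FPKM, 1.27 times the control level (p = 0.0183, q = 0.357 in the authors' deposited table). Exons of Stk16 on the opposite strand cover 37.3% of its exon bases, and how the authors' counting used strand is not given in the sources used here. Tuba1a, Tuba1b and Tuba1c are the isotypes of most dividing and somatic cells. Tuba1a was at 60.5 and 67.6 FPKM, Tuba1b at 28.5 and 35.7 FPKM, and Tuba1c at 35.8 and 41.8 FPKM. Of these 3, Tuba1c alone had an unadjusted p under 0.05 (p = 0.0354, q = 0.474 in the authors' deposited table). Their transcripts are alike over most of their length, with 98.3% identity between Tuba1a and Tuba1b, so the split among them is also uncertain. Their sum was 124.8 FPKM in control and 145.1 FPKM in Ptbp1_cKO, 1.16 times the control level. Tubal3, a little-studied relative, was low, at 0.754 and 0.482 FPKM, about 483 and 278 fragments at the effective length of its longest transcript (p = 0.0333, q = 0.463 in the authors' deposited table). The summed FPKM of the 8 alpha-tubulins was 2314 in control and 2303 in Ptbp1_cKO. In that sum, higher values of Tuba8, Tuba4a, Tuba1a, Tuba1b and Tuba1c stood beside lower values of Tuba3a, Tuba3b and Tubal3, and none of these differences passed the threshold. They were seen beside marker lists that differed in both directions. All Sertoli cell, macrophage, endothelial and epididymal markers had a higher FPKM in Ptbp1_cKO, as did 3 of 4 spermatogonial and 3 of 4 elongating spermatid markers. The spermatocyte and round spermatid markers were all lower, and the Leydig and peritubular myoid markers were mixed. The part of cell makeup in the tubulin values was not tested.

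Beta-tubulin was largely a single isotype. Tubb4b (chromosome 2, 25222160 to 25224702), the isotype typical of cilia and axonemes, was at 602.1 and 585.5 FPKM and held 91.9% of beta-tubulin FPKM in control and 90.9% in Ptbp1_cKO. A near-identical pseudogene, Tubb4b-ps1, matches 83.8% of its transcript at 98.4% identity and was listed at 26.3 FPKM in each group. Tubb5 (chromosome 17, 35833921 to 35838306), the isotype of dividing cells, was at 23.8 and 29.0 FPKM, 1.22 times the control level, with the lowest p of any tubulin (p = 0.00870, q = 0.243 in the authors' deposited table). Tubb3, known from neurons and also from Sertoli cells, stood at 19.4 and 20.4 FPKM. Tubb2a was at 4.97 and 4.71 FPKM and Tubb6 at 4.75 and 4.68 FPKM. Tubb2b and Tubb4a of the brain stayed under 0.2 FPKM. Tubb2b matches 83.8% of the Tubb2a transcript at 96.4% identity, so the split between Tubb2a and Tubb2b is uncertain. Tubb1 of platelets was listed at 0 in control and at 0.00886 FPKM in Ptbp1_cKO, about 2 fragments, and was not tested. Summed alpha- over summed beta-tubulin FPKM was 3.53 in control and 3.57 in Ptbp1_cKO.

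**Figure D2:**
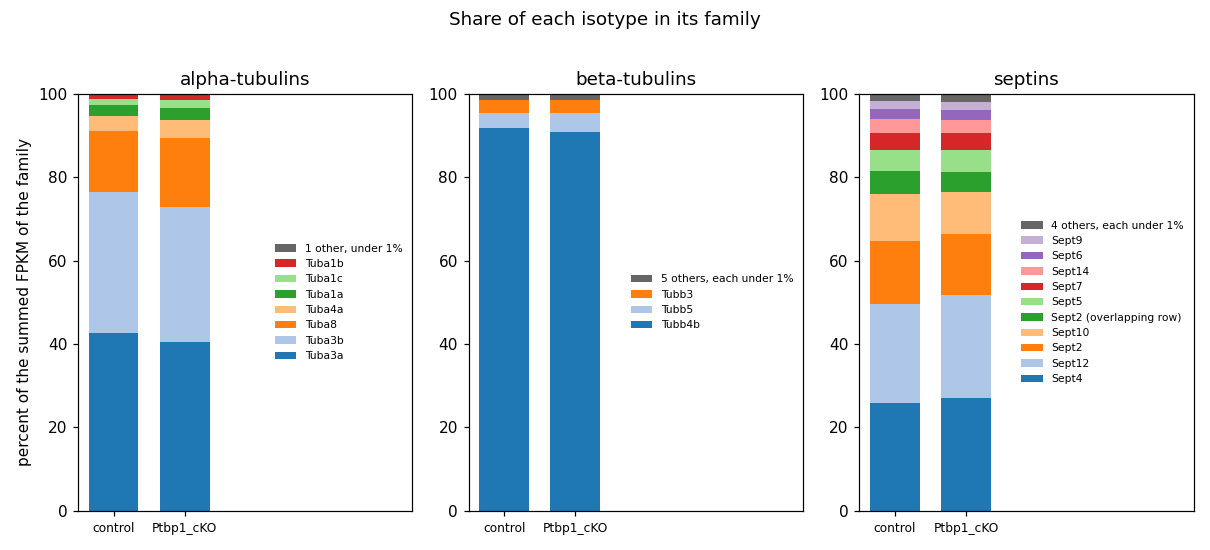
Share of each isotype in the summed FPKM of its family (vertical axis, percent) in control and Ptbp1_cKO, for alpha-tubulins, beta-tubulins and septins, with members under 1% pooled. Tuba3a and Tuba3b together fill 76.5% of the alpha-tubulin bar in control and 72.9% in Ptbp1_cKO, and Tubb4b fills 91.9% and 90.9% of the beta-tubulin bars.

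The tubulins of the centrosome and their partners gave no call. Tubg1, the gamma-tubulin that nucleates microtubules, was at 18.8 and 21.1 FPKM, and its relative Tubg2 at 0.651 and 0.739 FPKM. Tubd1 and Tube1, the delta- and epsilon-tubulins of centrioles, were at 27.1 and 24.6 FPKM and at 2.33 and 2.38 FPKM. Tubgcp2 and Tubgcp3 build the small gamma-tubulin complex together with gamma-tubulin. Tubgcp2 was at 24.2 and 24.6 FPKM. Tubgcp3 had the largest difference of this group, 17.6 and 14.4 FPKM, with p = 0.414 in the authors' deposited table. Tubgcp4, Tubgcp5 and Tubgcp6, which complete the ring, were at 14.5 and 14.8 FPKM, 3.94 and 3.54 FPKM, and 1.61 and 1.64 FPKM. None of these 9 genes had an unadjusted p under 0.05. Exons of Trp53bp1 on the opposite strand cover 25.4% of the exon bases of Tubgcp4. Trp53bp1 itself was at 35.7 FPKM in control and 33.3 FPKM in Ptbp1_cKO.

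The folding cofactors bring new alpha- and beta-tubulin together. Tbca, which holds beta-tubulin, was the most abundant at 130.8 and 121.3 FPKM. Gm6142 matches 51.3% of its transcript at 97.8% identity, so reads may be split between them. Tbcb and Tbce, which bind alpha-tubulin, were at 57.9 and 56.3 FPKM and at 8.91 and 9.42 FPKM. Tbcc, the activator that releases the finished dimer, was at 32.1 and 29.0 FPKM, and Tbcd, a second partner of beta-tubulin, at 4.09 and 4.85 FPKM. No cofactor had an unadjusted p under 0.05. Tbcb shares 22.5% of its exon bases with Polr2i on the opposite strand.

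All 13 Ttll genes were expressed, and Ttll13, Ttll10 and Ttll5 were the most abundant. Ttll5 and Ttll7 start glutamate chains on tubulin. Ttll5 was at 181.4 and 168.6 FPKM, and Ttll7 (chromosome 3, 146852367 to 146984009) at 45.3 and 38.1 FPKM, 0.84 times the control level (p = 0.0299, q = 0.443 in the authors' deposited table). Ttll4, of the same activity, was at 25.4 and 24.4 FPKM. Ttll1, which also adds glutamate, was at 14.3 and 14.9 FPKM. The enzymes that lengthen glutamate chains showed values on both sides: Ttll13 was at 222.1 and 223.3 FPKM, Ttll9 at 64.7 and 57.3 FPKM, Ttll6 at 51.3 and 50.8 FPKM and Ttll11 at 24.2 and 28.9 FPKM. Ttll11 had p = 0.0694 in the authors' deposited table. The glycylases all had a higher value in Ptbp1_cKO. Ttll8 (chromosome 15, 88890633 to 88954418), which starts glycine chains in cilia and flagella, was at 72.1 and 85.0 FPKM, 1.18 times the control level (p = 0.0450, q = 0.534 in the authors' deposited table). Ttll3, of the same activity, was at 14.6 and 16.3 FPKM, and Ttll10, which lengthens glycine chains, at 195.4 and 218.7 FPKM. Ttll2 was at 11.9 and 13.5 FPKM, with near-identical copies in the annotation, and Ttll12, which has no known chain-forming activity on tubulin, at 2.40 and 2.55 FPKM.

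Among the carboxypeptidases that trim glutamate, Agbl5, which removes the branch point of a chain, led at 273.1 and 287.6 FPKM. Agbl2 was at 126.2 and 118.7 FPKM, Agbl4 at 48.4 and 49.2 FPKM, Agbl3 at 25.9 and 24.5 FPKM and Agbl1 at 0.302 and 0.349 FPKM. None had an unadjusted p under 0.05, and the lowest q was 0.999 in the authors' deposited table. The summed FPKM of Ttll genes was 925.2 in control and 942.4 in Ptbp1_cKO, and that of Agbl genes 473.9 and 480.4.

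**Figure D3:**
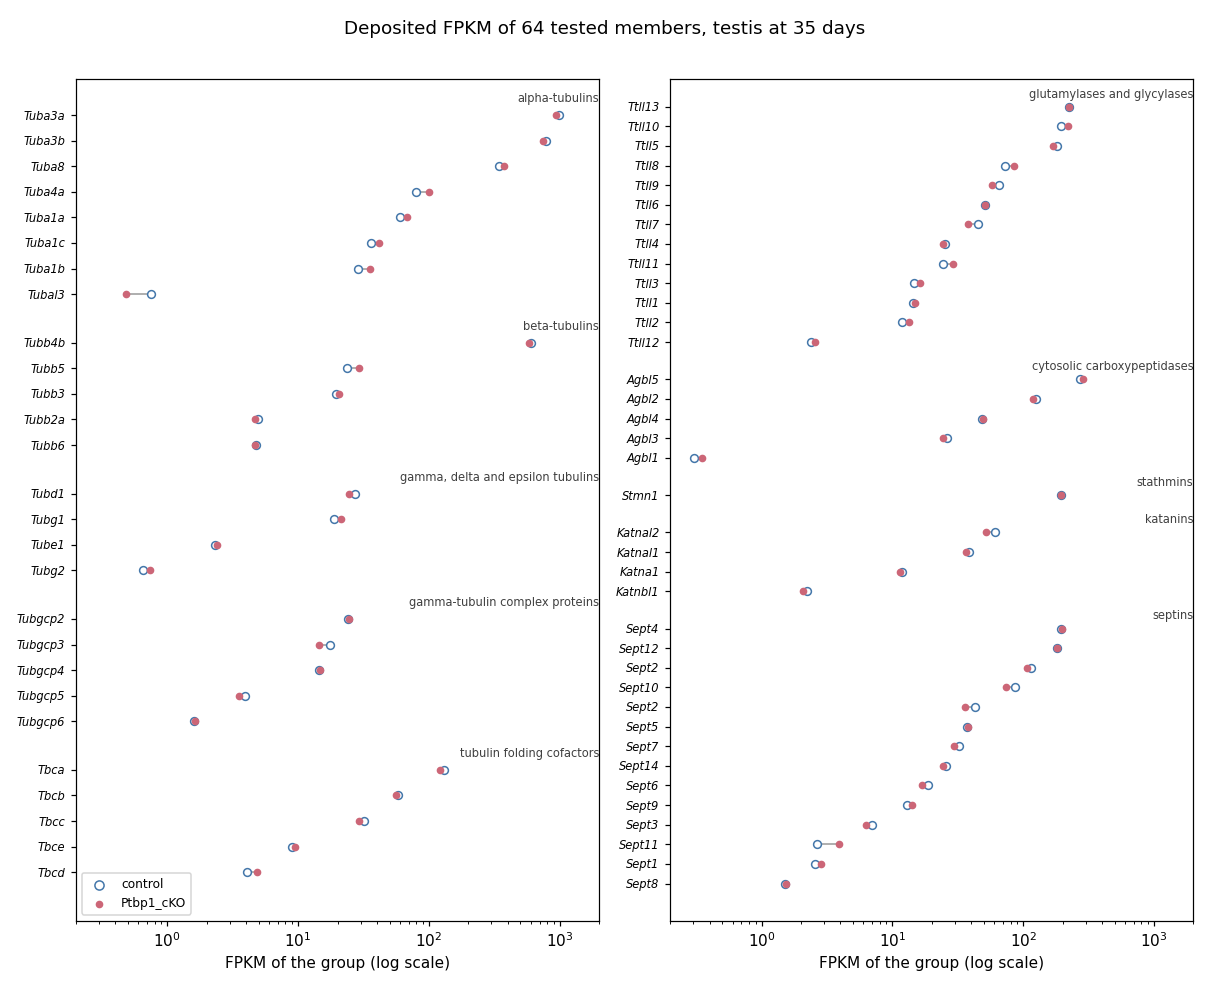
FPKM of each group (horizontal axis, log scale) for 64 of the 65 tested members by role, with open circles for control and filled circles for Ptbp1_cKO. Levels span from 0.302 FPKM for Agbl1 to 985.5 FPKM for Tuba3a in control, and the pair of circles nearly coincides for most members.

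Stathmins bind free tubulin and promote disassembly. Stmn1, the general form, was at 195.4 and 193.6 FPKM. Gm11223 matches 42.5% of its transcript at 99.8% identity, so reads may be split between them. The neural forms were not tested: Stmn2 was at 0.0860 and 0.0583 FPKM and Stmn4 at 0.0891 and 0.0986 FPKM, while Stmn3 was at 0.0346 FPKM in control and listed at 0 in Ptbp1_cKO. In the katanin family the 4 members described here had a lower value in Ptbp1_cKO. Katnal2, a katanin of spermatids, was at 60.5 and 51.9 FPKM, 0.86 times the control level (p = 0.0370, q = 0.484 in the authors' deposited table). Katnal1, known for its role in the microtubules of Sertoli cells, was at 38.2 and 36.3 FPKM. The catalytic subunit Katna1 was at 11.9 and 11.4 FPKM, and Katnbl1 at 2.22 and 2.07 FPKM. Katnal1, Katna1 and Katnbl1 had an unadjusted p of at least 0.645 in the authors' deposited table. The lower katanin values stood beside lower spermatocyte and round spermatid markers. All 10 Sertoli cell markers and 3 of 4 elongating spermatid markers went the other way. The part of these cells in the katanin values was not tested.

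Sept4 and Sept12, both septins of the sperm annulus, were the most abundant septins and were nearly equal between groups. Sept4, needed for the annulus, was at 195.4 and 197.4 FPKM, and Sept12, largely restricted to the testis, at 181.2 and 180.9 FPKM. Sept14, another testis septin, was at 25.5 and 24.4 FPKM. Sept2, Sept6 and Sept7 form the core filament of many cells. Sept2 was listed at 113.9 and 106.5 FPKM in one row and at 42.4 and 35.9 FPKM in the other, whose exons all lie within the first, so the split between them is uncertain. Their sum was 156.2 and 142.4 FPKM. Sept7 was at 32.0 and 29.3 FPKM and the X-linked Sept6 at 18.6 and 16.8 FPKM.

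The largest relative difference of any tested septin was in Sept11 (chromosome 5, 93093437 to 93176447), a partner of Sept7 in somatic cells. It was at 2.67 and 3.93 FPKM, 1.47 times the control level (p = 0.00325, q = 0.139 in the authors' deposited table). These values rest on about 2879 and 3820 fragments at the effective length of its longest transcript, a counting error of 0.0356 on the log2 scale. Its log2 fold change was 0.56. Among the marker lists, the median log2 fold change was 0.28 for Sertoli cells (10 markers), 0.41 for spermatogonia (4 markers), 0.53 for macrophages (3 markers) and 5.02 for the epididymis (2 tested markers). It was 0.18 for endothelial cells, 0.17 for elongating spermatids, 0.14 for peritubular myoid cells, -0.10 for Leydig cells, and -0.18 for both spermatocytes and round spermatids. No macrophage marker passed a deposited q under 0.05. The part of these cells in the Sept11 value was not tested. Sept10 (chromosome 10, 59141627 to 59221847) was at 86.1 and 73.7 FPKM, 0.86 times the control level (p = 0.0302, q = 0.444 in the authors' deposited table). None of the other septins had an unadjusted p under 0.05. Sept5 was at 36.9 and 37.9 FPKM, in part over exons of Gp1bb and a predicted gene on the same strand. Sept9 was at 13.0 and 14.2 FPKM, Sept3 at 6.96 and 6.26 FPKM, Sept1 at 2.58 and 2.82 FPKM, and Sept8 at 1.50 and 1.54 FPKM.

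**Figure D4:**
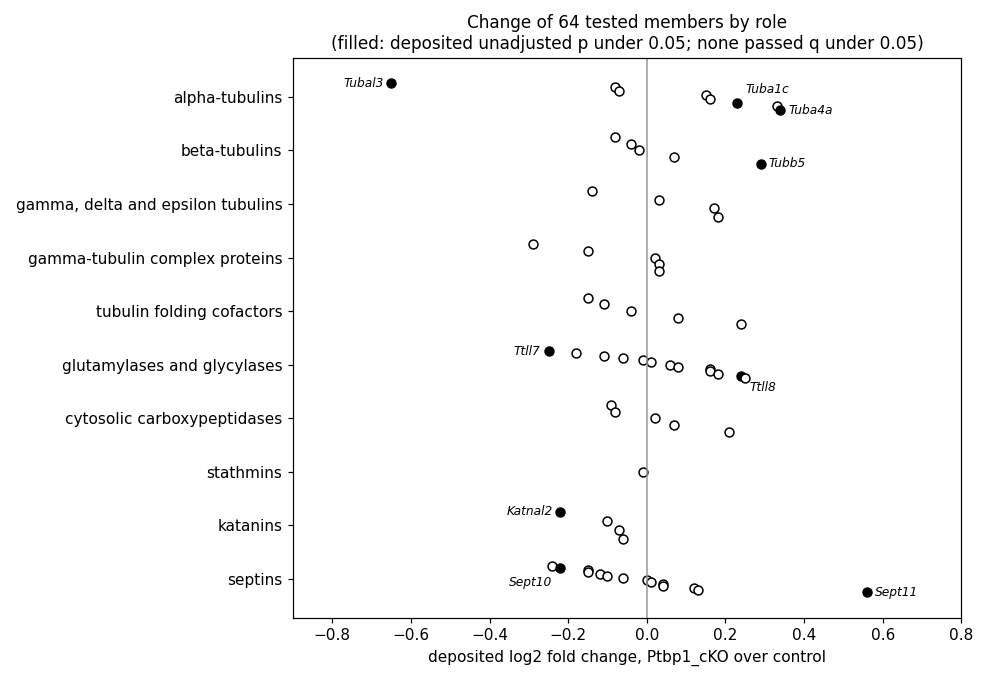
Log2 fold change, Ptbp1_cKO over control, as deposited (horizontal axis) for 64 of the 65 tested members by role, with filled circles for an unadjusted p under 0.05. The 9 filled circles are named and none of them passed a q under 0.05. Sept11 at 0.56 and Tubal3 at -0.65 lie farthest from 0.

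Other genes of microtubules and septins gave no call either. Of 68 listed genes that act on tubulin acetylation, tyrosination, severing or nucleation, bind microtubules or septins, or belong to the manchette, 65 were found and 63 tested. None passed Cuffdiff's threshold at q under 0.05, and 2 had an unadjusted p under 0.05, 1 in each direction, beside 1.16% and 8.98% of all tested genes. Cdc42ep5, a septin-binding effector of Cdc42, was at 9.38 and 11.9 FPKM (the authors' deposited table gives q = 0.354). Meig1, a manchette protein needed for sperm formation, was at 7372 and 6183 FPKM (the authors' deposited table gives q = 0.210). All 5 manchette genes had a lower value in Ptbp1_cKO, while the 3 acetylation genes and 3 listed tubulin folding genes all had a higher one. Over the 65 genes found, 34 had a higher and 31 a lower FPKM, with a median log2 fold change of 0.00.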

How the data were processed

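Whole-testis polyadenylated RNA was sequenced in 3 control and 3 Ptbp1_cKO libraries, grouped by title. Build mm10 and the tools STAR 2.6.1d, Cuffdiff, Cufflinks, Trimmomatic 0.38 and bcl2fastq 2.20 are listed in the submitters' processing notes without role or setting. The authors deposited 1 Cuffdiff table with an FPKM per group, a log2 fold change, a test statistic (a signed score per the file headers), a p-value and a q-value. Of 55331 genes 22048 were tested. Library normalisation is not given in the sources used here.

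Members and lists were chosen with earlier results of these data known. Those named were every member with an unadjusted p under 0.05 and, per role, the 3 most abundant and the 2 most changed with at least 1 FPKM. The rest of the members were added for completeness, and 1 tested member is counted but not reported singly here. Positions come from GENCODE M21 on the same build, where 69 of 71 members matched by versioned identifier (Sept3 and Sept4 did not). Near-identical transcripts of those 69 were sought with BLAST 2.17.0 at 95% identity. Fragment weights were read from 250 control and 272 Ptbp1_cKO values of single-exon genes of 1500 to 6000 bp. The adjustment, the normal p and the fragment weights were tested on simulated data. The simulated statistics came from a normal distribution, some of them shifted. They therefore do not check whether the normal p holds for the deposited statistic.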

Additional observations from a re-analysis of the deposited data

How the results depend on the processing

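Over all genes the deposited test called 256 genes, against 19 with a normal p from the deposited statistic, 421 at a deposited q under 0.1 and 255 among genes with at least 1 FPKM. No member was called under any of these settings. Without adjustment, 9 members had a deposited p under 0.05 and 0 a normal p under 0.05. Leaving out the 5 members that have a near-identical copy over at least 80% of their transcript could not change a count of 0 calls. The median difference of the members lay between -0.007 and -0.002 over 2 other pseudocounts and 2 other filters, and was 0.002 relative to the median of all genes with at least 1 FPKM, which was -0.004. Among role groups, the median of the carboxypeptidases went from 0.023 to -0.029 when Agbl1, at under 1 FPKM, was left out. Pseudocounts of 1 and 0.1 cannot reverse the direction of a member, so they were no check on the directions. No paired analysis was possible because the table holds 1 value per group, and for the same reason no replicate could be left out. Depth is known only as the weight of a fragment per group, and a count of 3 fragments at an effective length of 1 kb corresponds to 0.0133 FPKM in control and 0.0147 FPKM in Ptbp1_cKO.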

Other observations

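Some rows related to the members lay outside the selection rule. The tyrosine ligase Ttl, which restores the final tyrosine of alpha-tubulin, was at 0.497 and 0.498 FPKM in control and Ptbp1_cKO, far under each of the Ttll genes in both groups. Stmnd1, a stathmin domain gene, was at 0.231 and 0.302 FPKM (the authors' deposited table gives q = 0.937). The pseudogenes Tubb4b-ps2 and Tubb2a-ps2 were each under 0.1 FPKM in control and listed at 0 in Ptbp1_cKO.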
